A study of Mus musculus with 8 samples.

Results

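The following 10 genes of mucosal and gland epithelium were examined in sorted mouse liver endothelial cells: Muc1, Tff1, Tff2, Tff3, Dmbt1, Pigr, Prom1, Tspan8, Elf3 and Ehf. They were picked by name, with the difference between the cell populations already known, as 10 of the 21161 genes that had a single symbol on the array. Each is represented by 1 probe set. The arrays were hybridised with RNA of liver cells from bone-marrow chimeras. Recipients were C57BL\6N mice, 8 weeks old, that had received 9 Gy of radiation (2 x 4.5 Gy) and then, intravenously, 5000 YFP-labelled LSK cells, a marrow fraction rich in blood stem and progenitor cells. After 1 month, CD45- CD31+ CD146+ liver cells were sorted and divided into YFP+ cells, which the labels call bone marrow-derived endothelial cells, and YFP- cells, called resident. Both populations thus came from irradiated, transplanted hosts, and 4 arrays, labelled biological replicates, were made of each. No source used here gives the promoter that drives YFP or says whether mice were pooled for an array.

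Bile ducts carry mucus-secreting glands in their wall, and their lining resembles that of the stomach and airway in using membrane mucins, trefoil peptides and antibody transport to guard the surface. Trefoil factors are small secreted peptides that accompany mucins and aid repair of the epithelium. Mucin 1 is a membrane mucin of the apical surface, and the polymeric immunoglobulin receptor carries IgA across epithelial cells into bile and mucus. Elf3 and Ehf are ETS transcription factors that are largely restricted to epithelium, and Prom1 and Tspan8 encode membrane proteins of the epithelial surface.

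Levels are given as log2 of the normalized intensity that the authors deposited. The 95th percentile of the negative control probes, between 8.73 and 9.10 on the 8 arrays, served as the background limit, and 82.3% of all genes lay below it on every YFP- array. The median of the negative controls was at least 6.90 on every YFP- array and lower, between 6.69 and 6.82, on every YFP+ array. YFP+ replicate 3 stood apart from the other arrays on the second principal component (-55.4 against -3.04 to 18.3). All 9 measured endothelial marker genes were above the background limit in both populations, and all 9 had negative differences, with a median of -0.42. Their summed intensity lay between 23571 and 25813 units in YFP- samples and, without overlap, between 18605 and 20607 in YFP+ samples. Of the 9, 1 passed the test, beside 0.336% of all genes called lower: Tek, an angiopoietin receptor gene, which fell by 0.73 (limma adjusted p = 0.0224, a call that ended when any 1 YFP- array was left out, adjusted p = 0.0565 to 0.0802). Ptprc, the gene of CD45, averaged 7.28 ± 0.36 on YFP- and 8.79 ± 1.18 on YFP+ arrays (SD, n = 4; limma adjusted p = 0.181).

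Most of the 10 genes had higher levels on YFP+ arrays. Of the 10, 9 had a positive difference, as had 50.4% of all genes, and 1, Tff1, a negative one, with a median log2 difference of 1.53 against 0.00188 over all genes. Muc1, Tff2, Dmbt1, Prom1, Tspan8 and Elf3 passed the test over all genes (limma, adjusted p under 0.05), 6 of 10 higher and none lower. Over all genes 1.61% were called, 1.27% higher and 0.336% lower. Ehf, Tff3, Pigr and Tff1 did not. In 8 genes every YFP+ array lay above every YFP- array, as in 4.8% of all genes, and in Tff1 every YFP+ array lay below, as in 3.82%. Since the genes were chosen for this contrast, these counts describe them and test nothing. Each array measured RNA of many cells, so more cells that contain a transcript and more of it per cell cannot be told apart.

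**Figure D1:**
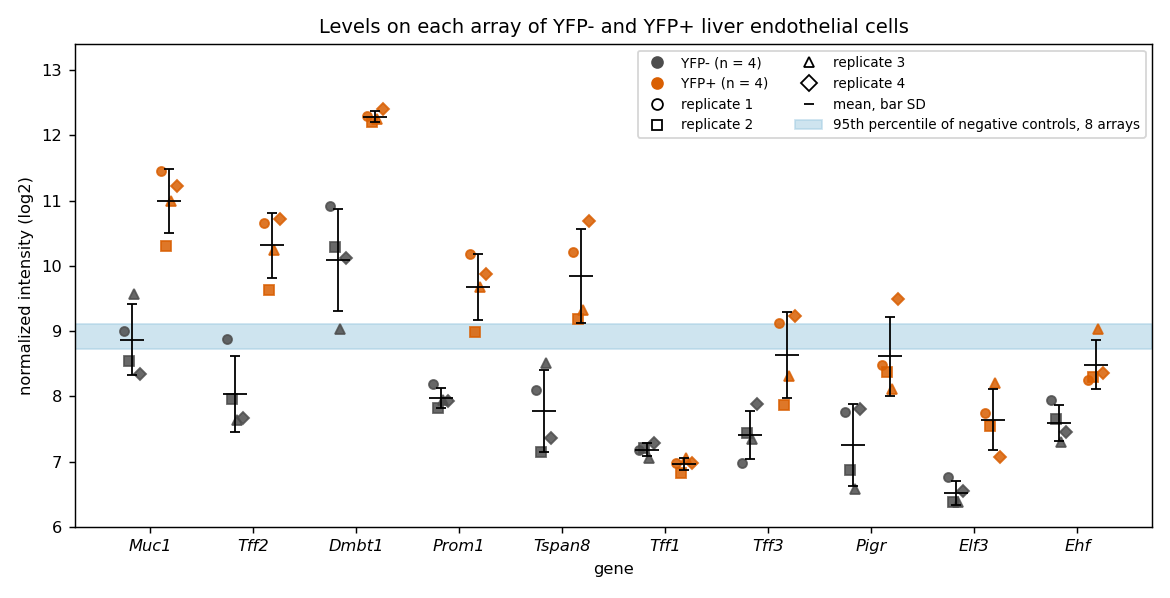
Normalized log2 intensity (y axis) of the 10 genes (x axis) on the 4 YFP- (grey) and 4 YFP+ (orange) arrays, with a symbol for each replicate, the group mean and its SD, and the range over the 8 arrays of the 95th percentile of the negative controls (blue band). Muc1, Tff2, Dmbt1, Prom1 and Tspan8 lie above their own array's limit on all YFP+ arrays, while Tff1 and Elf3 lie below it on all 8.

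RefSeq promoter windows (GRCm38.p6, 250 bases before to 50 after a start) were found for 5 of the genes, Muc1, Prom1, Tspan8, Pigr and Elf3, with a pair of starts for Prom1, which makes 6 windows. Of these, the 3 that hold a searched motif are shown, from 3 surface genes that were above background on all YFP+ arrays. Capitals mark letters of a searched motif. These were GGAAGT (the core of ETS factor sites), TGTTTAC (forkhead), the HNF1 site and TATAAA, on both strands, which do not overlap in the windows shown.
Muc1, chr3:89228806-89229105, plus strand: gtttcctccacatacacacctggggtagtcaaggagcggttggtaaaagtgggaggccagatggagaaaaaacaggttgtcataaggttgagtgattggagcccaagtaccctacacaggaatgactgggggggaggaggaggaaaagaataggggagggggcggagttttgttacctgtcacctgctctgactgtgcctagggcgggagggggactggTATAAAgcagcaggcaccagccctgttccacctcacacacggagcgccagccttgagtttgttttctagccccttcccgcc
Tspan8, chr10:115817034-115817333, plus strand: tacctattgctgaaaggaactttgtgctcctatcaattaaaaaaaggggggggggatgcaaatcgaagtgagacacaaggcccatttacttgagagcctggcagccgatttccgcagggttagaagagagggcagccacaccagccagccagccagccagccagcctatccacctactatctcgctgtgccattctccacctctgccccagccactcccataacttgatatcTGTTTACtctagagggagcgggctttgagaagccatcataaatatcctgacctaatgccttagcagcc
Prom1, chr5:44094719-44095018, minus strand, downstream start: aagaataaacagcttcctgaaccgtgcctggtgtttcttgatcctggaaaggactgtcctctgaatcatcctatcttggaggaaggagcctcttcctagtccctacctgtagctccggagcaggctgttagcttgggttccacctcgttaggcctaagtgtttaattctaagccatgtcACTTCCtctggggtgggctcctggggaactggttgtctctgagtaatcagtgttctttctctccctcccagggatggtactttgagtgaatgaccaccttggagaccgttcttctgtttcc
The TATAAA of Muc1 begins 31 bases before the start, and 13.6% of all 32851 RefSeq windows hold these letters. The forkhead letters of Tspan8 begin 18 bases before the start and occur in 3.65% of windows. ETS core letters were found in the printed Prom1 window alone among the 6, on the opposite strand, and in 23.8% of all windows. No HNF1 letters were found in the 6 windows, and 3 of all 32851 hold them. The windows of Pigr and Elf3 and the upstream start of Prom1 held none of the 4 motifs, so no searched motif was shared by these genes.

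Muc1, the membrane mucin, stood at 9.00, 8.54, 9.57 and 8.35 on YFP- replicates 1 to 4 and at 11.45, 10.31, 10.99 and 11.22 on YFP+ replicates 1 to 4. The groups did not overlap: the lowest YFP+ array, replicate 2, was 0.74 above the highest YFP- array, replicate 3, which was also the 1 YFP- array above background. The mean log2 difference was 2.13 (SE 0.30), with 3 of the 4 YFP- arrays below the background limit.

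Tff2, the trefoil peptide of mucous neck and gland cells in the stomach, gave 8.88, 7.96, 7.63 and 7.67 on the YFP- arrays and 10.66, 9.64, 10.25 and 10.72 on the YFP+ arrays. All YFP- arrays were below the background limit and all YFP+ arrays above it, without overlap. The log2 difference of 2.28 (SE 0.31) rests on a YFP- level that was not measured above background. With the YFP- arrays set at their background limit, Tff2 was at least 2.39-fold higher in YFP+ cells.

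The other trefoil genes had smaller differences. Tff3, the trefoil peptide of intestinal goblet cells, stood at 6.98, 7.43, 7.35 and 7.88 on YFP- and at 9.13, 7.87, 8.31 and 9.23 on YFP+ arrays. YFP+ replicate 2 fell within the YFP- range and replicates 1 and 4 were above background, and the log2 difference was 1.22 (SE 0.30), which did not pass the test. Tff1, the trefoil peptide of gastric surface cells, stood at 7.17, 7.21, 7.06 and 7.29 on YFP- and at 6.99, 6.83, 7.06 and 6.99 on YFP+ arrays. Its groups were separated by a margin that vanishes at 2 decimals. It was below background on all 8, and its difference of -0.22 (SE 0.11) lay beside negative control medians that were also lower on every YFP+ array. The part of the controls in this difference was not tested.

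The 3 trefoil genes lie next to each other on chromosome 17 in the order Tff3, Tff2, Tff1. Of the protein-coding neighbours, 3 on each side, none passed the test. Abcg1, a cholesterol exporter gene beside Tff3, had a log2 difference of -0.45 (SE 0.20, limma adjusted p = 0.355), and Tmprss3, a membrane serine protease gene beside Tff1, of 0.10 (SE 0.17, limma adjusted p = 0.880). Glp1r, the gene of the GLP-1 receptor, had the smallest adjusted p of the 6, with a difference of -0.79 (SE 0.19, limma adjusted p = 0.0803).

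**Figure D2:**
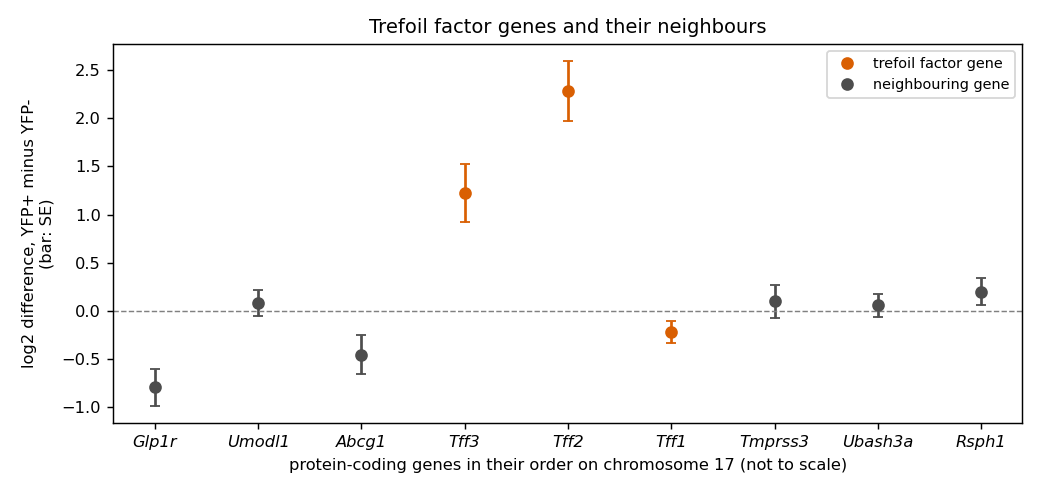
Log2 difference between YFP+ and YFP- arrays (y axis, with limma's SE) of the trefoil factor genes (orange) and 3 protein-coding neighbours on each side (grey), in their order on chromosome 17 (x axis, not to scale). Tff2 and Tff3 stand at 2.28 and 1.22, and Tff1 and the neighbours between -0.79 and 0.20.

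Dmbt1, which encodes a secreted scavenger-receptor glycoprotein of mucosal surfaces that binds bacteria, was at 10.92, 10.28, 9.04 and 10.11 on the YFP- arrays and at 12.29, 12.21, 12.25 and 12.40 on the YFP+ arrays. It was above background on 3 of 4 YFP- arrays already, with replicate 3 the low one, and the log2 difference was 2.20 (SE 0.32), or 4.59-fold. Its spread differed between the populations: the YFP- arrays spanned 1.88 (SD 0.78) and the YFP+ arrays 0.20 (SD 0.09, n = 4 each). Only 0.123% of all genes had a larger SD on the YFP- arrays, and 6.29% a smaller one on the YFP+ arrays. Its YFP+ values were below the brightest value of any gene on any array, 13.09, but only 20 of the 21161 genes had a higher mean YFP+ value. The reason for its small YFP+ spread was not tested.

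Pigr, the IgA transporter, stood at 7.77, 6.87, 6.58 and 7.81 on YFP- and at 8.48, 8.37, 8.11 and 9.49 on YFP+ arrays. The groups did not overlap, but only YFP+ replicate 4 was above background. The difference of 1.36 (SE 0.35) did not pass the test.

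Prom1, the gene of CD133, a marker of apical protrusions and in liver of bile duct cells, was at 8.19, 7.83, 7.94 and 7.94 on YFP- and at 10.18, 8.98, 9.67 and 9.87 on YFP+ arrays. Its YFP- arrays were close together (SD 0.15) and below background. Its YFP+ arrays were spread more widely (SD 0.51), each above its own array's limit. YFP+ replicate 2, at 8.98, was above its limit of 8.73 but below 9.06, the mean limit of the YFP- arrays. The log2 difference was 1.70 (SE 0.23), and against the background limit Prom1 was at least 1.53-fold higher.

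Tspan8, a tetraspanin gene of secretory epithelia, stood at 8.09, 7.15, 8.51 and 7.37 on YFP- and at 10.21, 9.18, 9.32 and 10.68 on YFP+ arrays. Its YFP+ arrays split into replicates 1 and 4, which were high, and replicates 2 and 3, which were about 1 log2 unit lower but still above every YFP- array. The difference was 2.07 (SE 0.38), and against the background limit the gene was at least 1.72-fold higher. Its adjusted p passed the threshold in 12 of 17 analyses, alternatives included.

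The transcription factor genes had smaller differences. Elf3 was at 6.76, 6.38, 6.38 and 6.55 on YFP- and at 7.74, 7.55, 8.20 and 7.07 on YFP+ arrays, without overlap but below background on all 8. Its difference of 1.12 (SE 0.22) passed the threshold in 8 of the 16 analyses that tested it. Ehf was at 7.94, 7.65, 7.31 and 7.45 on YFP- and at 8.25, 8.29, 9.04 and 8.36 on YFP+ arrays, with a difference of 0.90 (SE 0.20) that did not pass, and was above background on YFP+ replicate 3 alone. Elf3 and Ehf shared a YFP+ high point on replicate 3. Their centred values over the 8 arrays differed by a root mean square of 0.257, the smallest among all pairs of the 10 genes. This measure includes the difference between the populations, which was similar in both genes. On YFP+ replicate 4 their deviations from the YFP+ mean were unlike, -0.57 for Elf3 and -0.12 for Ehf.

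Between the YFP+ arrays the genes did not vary alike. YFP+ replicate 2 had the lowest value in 7 of the 10 genes (Muc1, Tff2, Dmbt1, Prom1, Tspan8, Tff1 and Tff3), and replicate 4 the highest in 5 (Tff2, Dmbt1, Tspan8, Tff3 and Pigr). Elf3 was lowest on replicate 4 and highest on replicate 3. The mean of Muc1, Tff2, Dmbt1, Prom1 and Tspan8 was 10.96, 10.06, 10.50 and 10.98 on YFP+ replicates 1 to 4, against 9.02, 8.35, 8.54 and 8.29 on the YFP- arrays. These 5 were taken because their mean YFP+ level was above the background limit, so the gap between the populations is a description.

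Marker lists of other cell types differed between the same arrays. The bile duct list of 15 genes averaged 8.89, 8.37, 8.60 and 8.89 on YFP+ replicates 1 to 4, lowest on replicate 2 and highest on replicates 1 and 4, as the mean of the 5 genes was. The pan-leukocyte list of 10 genes averaged 9.06, 10.31, 8.48 and 9.19, and the hepatocyte list, 10 of 11 measured, 8.60, 9.13, 8.24 and 8.86, both highest on replicate 2. Within the hepatocyte list, the called genes Alb, Ttr and Ambp were instead highest on YFP+ replicate 4, at 11.90, 10.20 and 10.61. The rest of that list was highest on replicate 2. The megakaryocyte and platelet list of 6 genes averaged 9.16, 8.90, 9.06 and 8.79 on YFP+ replicates 1 to 4, against 7.51 to 7.60 on the YFP- arrays. The mesothelial list of 6 genes averaged 8.02, 7.61, 7.17 and 8.11, also highest on replicates 1 and 4 but lowest on replicate 3. The stellate and fibroblast list of 5 genes averaged 7.75, 7.72, 7.24 and 8.03, lowest on replicate 3 as well. The endothelial list, 9 of 10 measured, averaged 10.72, 10.51, 10.84 and 10.75, lowest on replicate 2 like the bile duct list. The part of these cell types in the levels of the 10 genes was not tested.

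**Figure D3:**
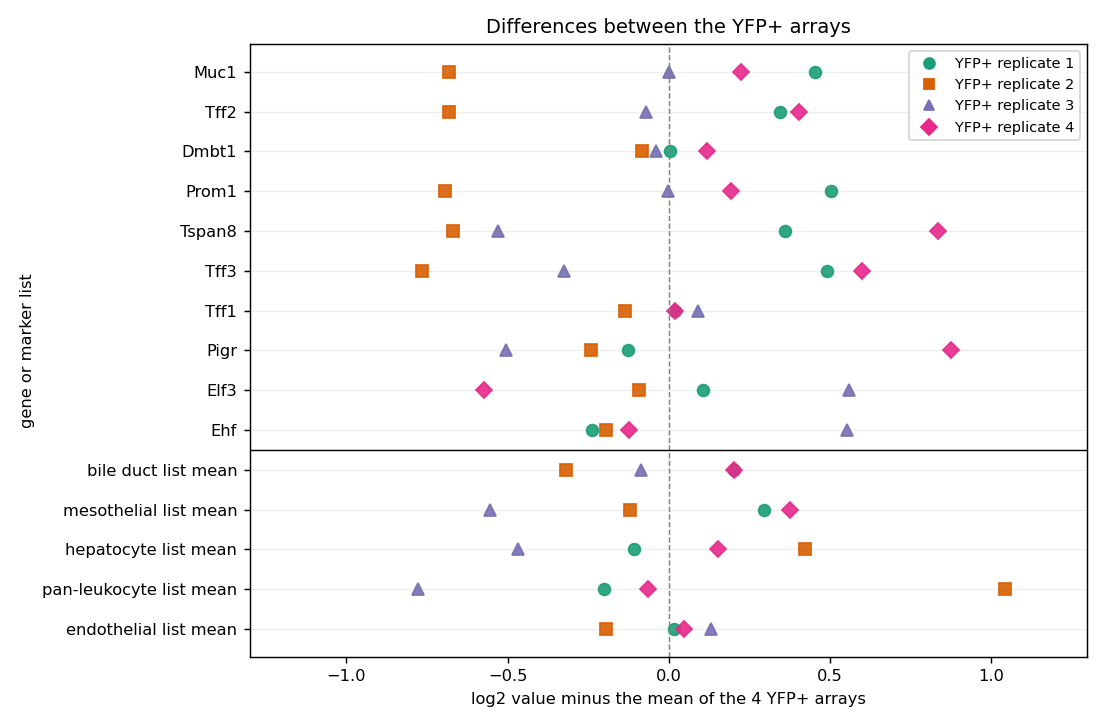
Log2 value on each YFP+ array minus the mean of the 4 YFP+ arrays (x axis) for the 10 genes and, under the line, for the mean of each marker list (y axis). Replicate 2 (orange squares) lies lowest for 7 of the 10 genes and for the bile duct and endothelial lists, and highest for the hepatocyte and pan-leukocyte lists. For Tff1 and the bile duct list the symbol of replicate 4 covers that of replicate 1.

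Genes of bile duct epithelium were higher in YFP+ cells as well. Of 15 measured bile duct genes, 6 rose and none fell, beside 1.27% called higher over all genes, and all 15 differences were positive, with a median of 0.78. This list and those below were also chosen with earlier results of these data known, so their shares are descriptions. The summed intensity of the list lay between 3730 and 5420 units in YFP- samples and between 8284 and 11967 in YFP+ samples, with 3 genes above background on some YFP- array and 8 on some YFP+ array. Krt18, a keratin of simple epithelia, was at 8.97, 8.38, 8.17 and 8.16 on YFP- and at 10.57, 9.58, 10.19 and 10.46 on YFP+ arrays, and rose by 1.78 (SE 0.24, limma adjusted p = 0.00759). Krt8, its partner keratin, rose by 1.72 (limma adjusted p = 0.00784), the adhesion gene Cdh1 by 1.76 (limma adjusted p = 0.00313) and the duct keratin genes Krt7 and Krt19 by 1.28 and 1.15 (limma adjusted p = 0.00228 and 0.0134). Spp1, the gene of osteopontin, rose by 1.53 (limma adjusted p = 0.0441). Krt19 was below background on every array. The Krt19 call ended without YFP- replicate 2 (adjusted p = 0.0524), and the Spp1 call without any 1 array other than YFP+ replicate 2 (adjusted p = 0.0507 to 0.148) and after quantile normalization (0.0512).

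Most mucus genes made by glands of the stomach, gut and airway were not measured above background: 23 of 25 were below the limit on all 8 arrays. On every YFP- array all 25 were below it, as were 82.3% of all genes, so low signal was common on these arrays. Of the 25 measured mucus and gland genes 1 rose and none fell, a share of 4.00% that is near the 1.27% over all genes, and the median difference was 0.04. The gene that rose was Fcgbp, which encodes a mucus protein that binds trefoil factor 3 in humans. Fcgbp was at 7.71, 7.61, 7.34 and 8.05 on YFP- and at 8.77, 8.69, 8.94 and 8.89 on YFP+ arrays, a difference of 1.15 (SE 0.15, limma adjusted p = 0.00733). Its groups did not overlap, and it was above background on 1 YFP+ array. Among the rest, Muc16, Muc3 and St6galnac1, which adds sialic acid to mucin sugars, had the smallest adjusted p, with differences of 0.31, 0.30 and -0.20 (limma adjusted p = 0.366, 0.487 and 0.534).

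Muc1 was set beside the other 10 measured mucin genes, of which none passed the test, with differences from -0.39 for Muc6 to 0.40 for Muc13. The gel-forming mucins Muc5ac, Muc5b and Muc6, which mucous glands secrete, were below background on all 8 arrays, with differences of -0.16 (SE 0.12), 0.28 (SE 0.18) and -0.39 (SE 0.23). Sox17 and Pdx1, transcription factor genes known from gland stem cells of the biliary tree, had differences of -0.46 and 0.18 (limma adjusted p = 0.126 and 0.678), and both were below background on all 8 arrays. Sox17 is also an endothelial gene. These probes do not show whether gland cells contributed, and the 10 genes are described by their leading members, Muc1, Tff2 and Dmbt1.

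Among 9 measured genes for partners and receptors of trefoil peptides and Muc1, 2 rose, Fcgbp and Cxcr4, beside 1.27% over all genes, and none fell, with a median difference of 0.26. Cxcr4, a chemokine receptor gene of blood cells whose product has been described as a receptor for Tff2, was at 7.39, 7.27, 7.31 and 7.22 on YFP- and at 9.23, 11.03, 8.94 and 8.96 on YFP+ arrays. It was highest on YFP+ replicate 2, where the pan-leukocyte list was highest and the mean of the 5 genes lowest. Its rise of 2.24 (SE 0.40, limma adjusted p = 0.0261) lost its call without YFP+ replicate 1 or any 1 YFP- array (adjusted p = 0.0556 to 0.0874). Lgals3, whose galectin binds Muc1, had a difference of 1.32 (limma adjusted p = 0.0749), Egfr and Erbb3, receptor genes of the epidermal growth factor family, of 0.26 each (limma adjusted p = 0.437 and 0.688).

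Of 16 measured genes of IgA transport and luminal defence, to which Pigr and Dmbt1 relate, none passed the test in limma, and the median difference was 0.18. After Lgals3, the smallest adjusted p were those of Wfdc2, an antiprotease gene, with a difference of 0.48 (SE 0.14, limma adjusted p = 0.140), and of Cd55, a complement regulator, with -0.43 (SE 0.14, limma adjusted p = 0.179). Jchain, the gene of the J chain to which the IgA receptor binds, was at 6.38 ± 0.20 on YFP- and 6.76 ± 0.63 on YFP+ arrays (SD, n = 4; limma adjusted p = 0.635).

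Among 27 epithelial transcription and splicing factor genes 2 rose and none fell, 7.41% beside 1.27% of all genes, with a median difference of 0.05. Klf5, a zinc finger factor of proliferating epithelium, was at 6.96, 6.78, 6.40 and 6.62 on YFP- and at 8.42, 8.45, 8.49 and 8.22 on YFP+ arrays and rose by 1.70 (SE 0.14, limma adjusted p = 0.000639). Its YFP+ arrays were close together, with no low point on replicate 2, and all were below background. Onecut1, a factor of bile duct and hepatocyte development, was at 7.64, 6.93, 7.37 and 7.28 on YFP- and at 8.96, 7.87, 8.49 and 8.92 on YFP+ arrays, lowest on replicate 2. It rose by 1.25 (SE 0.24, limma adjusted p = 0.0376), a call that ended without YFP+ replicate 1 or 4 or any 1 YFP- array (adjusted p = 0.0645 to 0.130). Hnf4a and Grhl2, factors of hepatocytes and of epithelial junctions, had differences of 0.60 and 0.98 (limma adjusted p = 0.0514 and 0.0540), and Klf4 of -0.79 (limma adjusted p = 0.0934). Leaving out YFP+ replicate 3 raised the count of 2 calls to 6, of which 5 were higher and 1 lower, and leaving out YFP+ replicate 2 raised it to 4. It became 1 when YFP+ replicate 1 or 4, or any YFP- array but replicate 1, was left out.

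Within the ETS family, Elf3 and Ehf were set beside 23 other measured genes. Of these, 1 rose, beside 1.27% of all genes: Spi1, the myeloid factor PU.1, by 3.09 (SE 0.40, limma adjusted p = 0.00646), and none fell, with a median of -0.07. Elf5 and Spdef, ETS genes of glandular epithelium, had differences of -0.10 and 0.04 (limma adjusted p = 0.863 and 0.966). The 19 tetraspanin genes other than Tspan8 had no call, with differences between -0.69 and 0.46, and Prom2, the second prominin gene, had a difference of -0.16 (SE 0.14, limma adjusted p = 0.714).

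Some epithelial surface and junction genes rose. Of 19 measured, 3 rose and none fell, 15.8% beside 1.27% of all genes, and the median difference was 0.43. Cldn7, a claudin gene of epithelial junctions, was at 7.49, 7.86, 7.77 and 7.72 on YFP- and at 9.71, 9.02, 8.43 and 9.05 on YFP+ arrays and rose by 1.34 (SE 0.23, limma adjusted p = 0.0225). Ezr, the gene of ezrin, which links apical membrane to actin, rose by 0.88 (SE 0.14, limma adjusted p = 0.0138), and the membrane protease gene St14 by 0.81 (SE 0.16, limma adjusted p = 0.0354). St14 was below background on every array. The Ezr call ended without YFP- replicate 1 or 2 (adjusted p = 0.0559 and 0.0588). The Cldn7 call ended without YFP+ replicate 4, without any 1 YFP- array (0.0592 to 0.0758) and with the replicate block (0.0580), and the St14 call without YFP+ replicate 1 or 4, without any 1 YFP- array (0.0719 to 0.115) and with the block (0.0544). Spint1, Rab25 and Tmprss2 had differences of 1.20, 0.83 and 0.50 that missed the threshold (limma adjusted p = 0.101, 0.119 and 0.197).

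**Figure D4:**
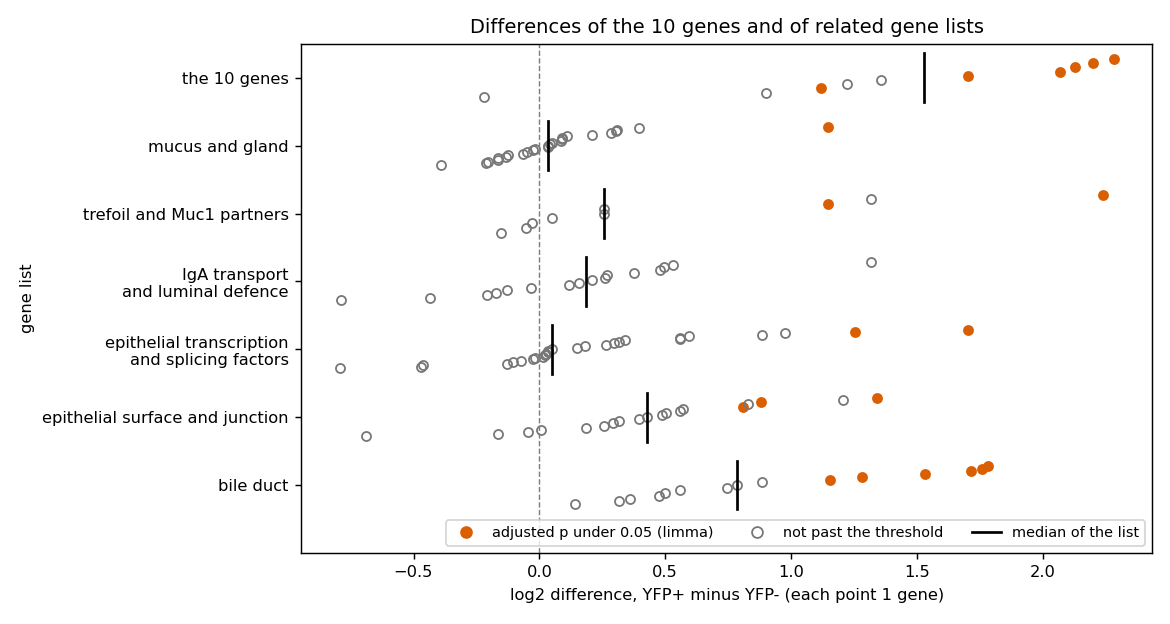
Log2 difference between YFP+ and YFP- arrays (x axis) of each measured gene in the 10-gene set and in 6 related lists (y axis), filled where the adjusted p was under 0.05, with the median of each list as a bar. The medians are 1.53 for the 10 genes, 0.78 for bile duct genes and 0.04 for mucus and gland genes.

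Markers of other organs that make these transcripts were at background. Of all genes, 82.3% were below the background limit on every YFP- array. All 5 measured gastric, 8 intestinal, 7 pancreatic acinar and 3 airway marker genes were below it on every array, and none passed the test. Their summed intensities overlapped between the populations, for example between 654 and 737 units in YFP- samples and 660 and 712 in YFP+ samples for the gastric list. Hepatocyte genes did differ, with 3 of 10 called higher (Ttr, Alb and Ambp), beside 1.27% over all genes, and a summed intensity between 3198 and 4520 units in YFP- samples and between 5434 and 9342 in YFP+ samples. On the mesothelial list, 1 of 6 rose, beside the same 1.27%, Upk3b, by 1.60 (SE 0.30, limma adjusted p = 0.0330), with a sum of 755 to 980 against 960 to 2122 units. The Upk3b call ended without any 1 array other than YFP+ replicate 3 (adjusted p = 0.0525 to 0.119), and the calls of Alb, Ttr and Ambp also each ended without at least 1 array (adjusted p = 0.0509 to 0.115). Of the 10 pan-leukocyte genes 5 rose (Laptm5, Cd53, Spi1, Tyrobp and Lcp1), again beside 1.27%, and their sum lay between 1727 and 2188 units in YFP- samples and between 5119 and 16335 in YFP+ samples. Megakaryocyte and platelet genes differed too: 3 of 6 rose, beside 1.27% over all genes, and the sum of the list was between 1329 and 1381 units in YFP- samples and between 3730 and 4695 in YFP+ samples, without overlap. Ppbp, a platelet chemokine gene, rose by 4.16 (SE 0.14, limma adjusted p = 5.5e-07) and Pf4 by 2.26 (SE 0.15, limma adjusted p = 0.000109). Gp6, the platelet collagen receptor gene, rose by 1.01 (limma adjusted p = 0.0208), a call that ended without YFP+ replicate 1 or any 1 YFP- array (adjusted p = 0.0507 to 0.0765). Gp6 was below background on every array. The part of platelet RNA in the levels of the 10 genes was not tested.

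Likeness was measured against the mean pattern of the 5 genes whose mean YFP+ level was above the background limit. It was the root mean square difference of centred log2 values over the 8 arrays. The nearest was the keratin gene Krt18, at 0.190, followed by Pdzk1ip1, a small membrane protein gene of epithelia, at 0.245, and Pf4, the platelet chemokine, at 0.276. The next were C3, the complement component, at 0.355, Krt8 at 0.357, the tetraspanin-like Tm4sf4 at 0.361, Efemp1 at 0.364, Sult1c2 at 0.365, Spp1 at 0.368 and Bicc1 at 0.377. Pdzk1ip1 stood at 7.73, 6.86, 7.47 and 7.29 on YFP- and at 10.02, 8.65, 8.83 and 9.55 on YFP+ arrays, lowest on replicate 2 like Muc1 and Tspan8. Pf4 spanned little on the YFP- arrays, from 7.72 to 7.84.

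Single genes had partly different neighbours. Dmbt1 was nearest to Atp1b1, a subunit of the sodium pump, at 0.333, and then to Krt8 and Pik3ap1. Prom1 was nearest to Smim22, at 0.174, to Krt18, at 0.181, and to Onecut1, at 0.256. Tff2 was nearest to Krt18, at 0.285, Bicc1, at 0.379, and Pdzk1ip1, at 0.409. Muc1 and Tspan8 shared Pdzk1ip1 as their nearest gene, at 0.355 and 0.358, and the platelet gene Pf4 as the next, at 0.387 and 0.510. After these came Krt18 for Muc1, at 0.431, and the hepatocyte gene Ambp for Tspan8, at 0.511. These distances are descriptions over 8 arrays on which all these genes also differ between the populations.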

How the data were processed

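Per the labels' protocols, endothelial cells were sorted from collagenase-treated liver, and the Affymetrix 3' IVT Pico kit amplified 100 pg of their RNA. For 8 arrays, the deposited tables hold linear, normalized intensity. A fold (the ratio of group means) and an unadjusted p-value from an unnamed test stand in the larger one, per the file headers, and were not used. The array model and how the authors summarized and normalized it: not given in the sources used here.

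Values were log2 transformed. Of 22206 gene probe sets, 22203 had values on all arrays and 21371 a single symbol in the deposited annotation. Entrez numbers matched RefSeq for 20402 and updated 899 symbols. For 131 genes with several probe sets the brightest was used, which left 21161 genes with no filter on dim ones. YFP+ and YFP- arrays were compared with limma 3.58.1 in R 4.3.3 (lmFit, eBayes, no covariate, two-sided, Benjamini-Hochberg over all genes, threshold 0.05). SDs are over 4 arrays and SEs are limma's. The number of arrays limits precision, and a p-value reflects only how far these samples spread. A gene below the background limit on all YFP- arrays was given a lower bound, its YFP+ mean over that limit, where this exceeded 1.

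The 10 genes and the lists were chosen with earlier results of these data known. Named were all 10 genes, every called member of a pathway list and up to 3 more with the smallest adjusted p, and the 10 genes nearest in pattern (3 for a single gene), predicted genes excepted. Gel-forming and other mucins, Jchain, Sox17, Pdx1, Elf5, Spdef, Prom2, the neighbours of the trefoil genes and marker genes were named after their values were seen. Alternatives were the replicate block, array weights, cyclic loess or quantile normalization, averaged probe sets, a filter on dim genes, trended and robust eBayes, and leaving out each array. Tables were read with pandas 2.3.3 and numpy 2.4.6 and plots drawn with matplotlib 3.10.9, under Python 3.11.15.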

Additional observations from a re-analysis of the deposited data

Results flagged for a closer look

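Of 72 groups of 4 arrays examined, for the 10 genes and the 26 called list genes, 2 held an array far from the other 3, and chance gives about 1 in 20. Ehf on YFP+ replicate 3 was 9.04, above the 8.25 to 8.36 of the other YFP+ arrays. Cxcr4 on YFP+ replicate 2 was 11.03, above the 8.94 to 9.23 of the others.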

How the results depend on the processing

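The 9 positive differences stayed positive and that of Tff1 negative in all analyses that tested them, which for genes whose groups do not overlap is no sign of stability. The groups of Tff3 overlapped, and its difference stayed between 1.02 and 1.77. Over all genes 340 were called (269 higher), 695 with array weights, 586 with YFP+ replicates 2 and 3 both left out (chosen after seeing the data), and 115 to 636 without single arrays (the highest when YFP+ replicate 3 was dropped, 182 and 183 for YFP+ replicates 1 and 4, 115 to 140 for each YFP- array). Calls were 79.1% higher as reported and 52.0% with dim genes left out (246 calls). The 6 of the 10 genes that passed became 4 to 7 without single arrays and 9 with array weights. Their median difference of 1.53 was 1.44 to 1.71 without single arrays and 2.13 with dim genes left out, which removed 5 of the 10. That filter kept genes above the background limit on at least 4 arrays. The 5 that remained met it through their YFP+ arrays, and Tff2, Prom1 and Tspan8 were above the limit on no YFP- array. The value of 2.13 thus follows from a choice by YFP+ level and is no sign of stability. Bile duct calls (6) were 10 without YFP+ replicates 2 and 3, and 4 to 8 without single arrays. Epithelial factor calls (2, both higher) were 6 without that pair (5 higher, 1 lower), 7 with array weights (6 higher, 1 lower), 1 with dim genes left out (0 higher and 1 lower, of 2 tested) and 1 to 6 without single arrays, so that the absence of lower calls depends on these settings. Mucus and gland calls (1) were 0 with dim genes left out, where none of the list was tested, and 1 to 2 without single arrays (2 without YFP+ replicate 3, 1 higher and 1 lower). Of 26 called list genes 13 kept their call in every alternative that tested them, among them Krt7, Krt8, Krt18, Cdh1, Klf5 and Fcgbp. Where not stated, the cause was not tested.

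Arrays of the same replicate number shared deviations weakly (correlations 0.159, 0.0194, 0.0999 and 0.0781). Each YFP- array still correlated most with the YFP+ array of its own number, the other values lying between -0.130 and 0.0666. From the other side this failed for YFP+ replicate 2, which correlated more with YFP- replicate 3 (0.0272) than with YFP- replicate 2 (0.0194). The column headers of the larger deposited table also repeat the same numbers in both groups. Whether the numbers mark pairs is not settled by these values, and the main test left the arrays unpaired. With the replicate block 241 genes were called, 6 of the 10 genes and 6 bile duct genes among them. Signals below the negative controls' 95th percentile limit what can be said of Tff1, Elf3, Klf5, Krt19, St14, Gp6 and the mucins.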
